A study of Mus musculus with 12 samples.

Results

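The 34 genes described here encode the Wnt ligands and the receptors that bind them. They were all genes, among the 49315 in the deposited table, whose symbol is a numbered Wnt or Frizzled (Fzd) name, together with Lrp5, Lrp6, Ror1, Ror2 and Ryk. The members comprised 19 ligands, 10 Frizzled receptors, 2 LRP co-receptors and 3 receptors of the ROR and RYK kinds. They were measured by bulk RNA sequencing of dorsal root ganglia (DRG), the sensory ganglia beside the spinal cord, in 12 mice aged 10 months. One library was made per mouse from about 8 pooled ganglia. The 6 Nf2 mice carried Postn-Cre and Nf2 flox/flox, so that Nf2, the gene of the tumor suppressor merlin, was deleted in cells that had expressed the Cre. The 6 DKO mice carried the same Cre and Nf2 alleles and also Fak1 flox/flox, which adds deletion of Fak (Ptk2), the focal adhesion kinase. All 12 mice therefore lacked Nf2 in these cells, and no group kept it. The periostin-driven Cre acts in Schwann cells and their precursors, whereas the ganglia also hold neurons, satellite glia, fibroblasts, vessels and immune cells. Each genotype had 3 mice labelled male and 3 labelled female.

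Wnt proteins are secreted glycoproteins that carry a lipid and act on cells close to their source. In the beta-catenin branch, a ligand binds a Frizzled together with LRP5 or LRP6, which stops the destruction of beta-catenin and lets it act with TCF/LEF factors on transcription. In the beta-catenin-independent branches, ligands of the WNT5A kind act through Frizzleds with ROR1, ROR2 or RYK on cell polarity and migration. In peripheral nerve, Wnt signaling is known for its part in Schwann cell lineage progression and myelination.

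The total count ranged from 21129191 to 41250329 per mouse, and mitochondrial genes took 1.99% to 5.60% of it, with the highest shares in Nf2 mouse 649 and DKO mouse 887. All 14 sensory neuron markers were among the genes tested, and their summed level was 12330 to 15530 CPM (counts scaled to the library total) over the 12 mice. Ptk2, counted over the whole gene, was at 65.8 to 75.5 CPM in Nf2 and 46.5 to 76.0 CPM in DKO mice, and the genotypes overlapped. In bulk tissue, fewer cells of a type and less RNA per cell cannot be told apart. Mouse 702, labelled male, had 496 CPM of Xist and 0.525 CPM of Ddx3y, which are the levels of the libraries labelled female. The main comparisons by sex are therefore given with and without it, whereas the fit with sex as a covariate kept it as male.

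Among the ligands, Wnt6 had the highest level per length, at 19.5 ± 2.5 CPM per kb of exon (mean ± SD, n = 12 mice). Per length, Wnt2b followed at 5.61 ± 1.33, Wnt5a at 4.67 ± 0.79 and Wnt9a at 4.24 ± 0.46 CPM per kb, and the mice of these 3 ligands overlapped. Every mouse had more Wnt6 per length than any mouse had of these ligands. Wnt4 at 1.22 ± 0.61 and Wnt7a at 1.19 ± 0.25 CPM per kb came next. Wnt11, Wnt10a, Wnt5b, Wnt16, Wnt7b and Wnt3 lay between 0.243 and 0.621 CPM per kb on average. Wnt6 thus gave 51.2% ± 3.82 (SD, n = 6) of the summed ligand level per length in Nf2 and 47.5% ± 5.17 in DKO mice. The summed level of all 19 ligands was 35.5 to 41.7 CPM per kb in Nf2 and 35.5 to 46.3 CPM per kb in DKO mice.

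Near the lower end, Wnt10b averaged 0.113 CPM per kb with 2 to 22 counts per mouse, and it was still tested. The other 6 ligands did not pass the filter on low counts. Of these, Wnt2 had 2 to 15 counts and Wnt9b 1 to 12 counts per mouse. Wnt1, Wnt3a, Wnt8a and Wnt8b, which are best known from embryonic development, had at most 6 counts in any mouse and no read in some mice. Wnt8a had no read in the 6 Nf2 mice and 5 reads in all over the 6 DKO mice, too few for a comparison.

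Among the 15 receptors, Ryk, a receptor with an inactive kinase domain, had the highest level per length, at 10.6 ± 1.13 CPM per kb (SD, n = 12). Fzd1 followed at 8.79 ± 1.06, Lrp6 at 7.19 ± 1.34, Fzd2 at 7.10 ± 1.55 and Fzd7 at 6.93 ± 0.69 CPM per kb. The mice of these 4 genes overlapped with one another, so their order was not separated by the spread between mice, and Ryk and Fzd1 overlapped too. Fzd8 was at 3.99, Ror2 at 2.57 and Lrp5 at 1.93 CPM per kb on average. Fzd6, Fzd4 and Fzd3 lay between 1.34 and 1.68 CPM per kb, and Fzd5, Fzd9, Ror1 and Fzd10 between 0.258 and 0.595 CPM per kb. All 15 receptors passed the filter.

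**Figure D1:**
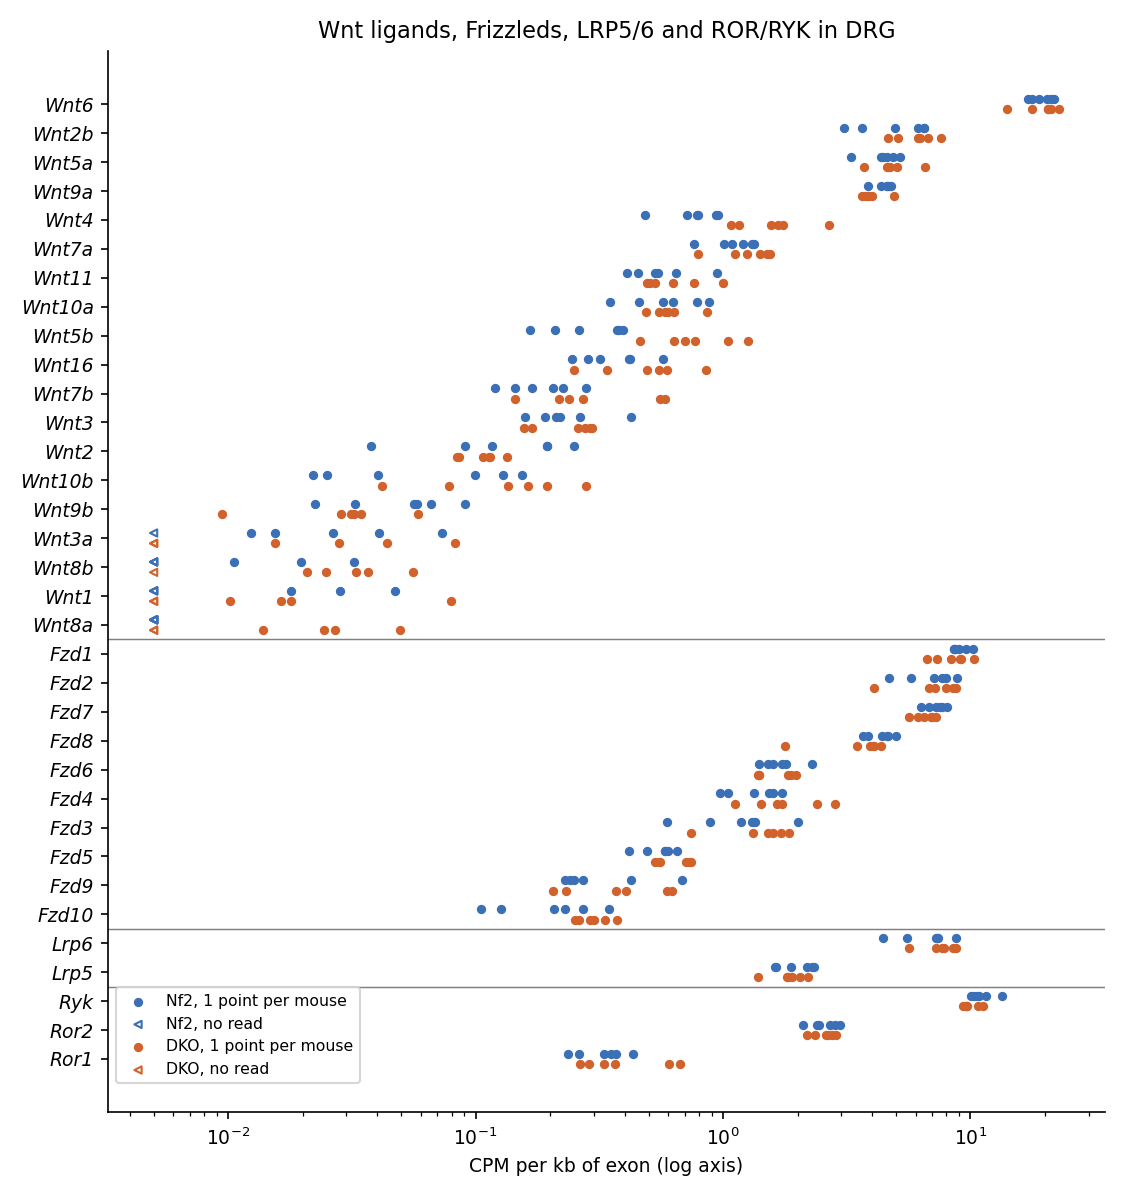
Level of each of the 34 genes in CPM per kb of exon (log axis), 1 point per mouse, with Nf2 mice in blue and DKO mice in orange, and open triangles at the left edge for mice with no read. Grey lines part ligands, Frizzleds, LRP co-receptors and ROR/RYK receptors. Wnt6 and Ryk have the highest means of their classes, and the DKO points of Wnt4 and Wnt5b lie to the right of all Nf2 points.

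The comparison of DKO with Nf2 mice addressed how loss of Fak in Nf2-deficient cells goes with the expression of Wnt ligands and receptors in the ganglion. Of the 28 members tested, Wnt5b and Wnt4 rose in DKO and none fell, whereas none of the 15 receptors passed the test. Both are ligands, and both are mostly described in beta-catenin-independent signaling, Wnt4 in beta-catenin signaling as well. The share of members past an edgeR adjusted p of 0.05 was 2 of 28, against 0.940% of the 18295 genes tested in either direction and 0.372% higher in DKO. At an unadjusted p under 0.05, 3 of the 28 members passed, all of them ligands, against 14.9% of all genes. Among the 28 members, the genotypes did not overlap in 2, Wnt5b and Wnt4, against 2.08% of all genes tested.

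Wnt5b encodes a ligand that is the closest relative of WNT5A. Among Nf2 mice its level was 0.554 CPM in mouse 649, 1.01 in mouse 702, 0.991 in mouse 884, 0.440 in mouse 918, 0.697 in mouse 1048 and 1.05 in mouse 1049. Among DKO mice it was 2.05 CPM in mouse 885, 2.77 in mouse 886, 1.23 in mouse 887, 1.87 in mouse 914, 3.34 in mouse 915 and 1.68 in mouse 917. Every DKO mouse thus lay above every Nf2 mouse, with DKO mouse 887 closest to the Nf2 range. The mean rose from 0.790 ± 0.262 to 2.15 ± 0.77 CPM (SD, n = 6), by 1.42 ± 0.28 (SE) on the log2 scale or 2.68-fold (95% interval 0.83 to 2.02, edgeR adjusted p = 0.0288). These levels rest on few reads, 13 to 29 counts per Nf2 mouse and 26 to 86 counts per DKO mouse. On the scale of log2(CPM + 4), the difference was 0.35, and the lack of overlap alone sets its exact permutation p to the smallest possible, 0.002165.

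Wnt4 encodes a ligand known for its roles in kidney, gonad and Müllerian duct development. Among Nf2 mice its level was 3.92 CPM in mouse 649, 3.34 in mouse 702, 3.01 in mouse 884, 2.03 in mouse 918, 4.00 in mouse 1048 and 3.29 in mouse 1049. Among DKO mice it was 6.53 CPM in mouse 885, 11.3 in mouse 886, 4.88 in mouse 887, 4.51 in mouse 914, 7.02 in mouse 915 and 7.34 in mouse 917. No DKO mouse overlapped the Nf2 range, and DKO mouse 886 stood highest. The mean rose from 3.26 ± 0.72 to 6.93 ± 2.42 CPM (SD, n = 6), by 1.07 ± 0.22 (SE) on the log2 scale or 2.09-fold (95% interval 0.59 to 1.55, edgeR adjusted p = 0.0411). The difference of log2(CPM + 4) was 0.57, and its permutation p is set by the lack of overlap as well.

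The size of both differences held when single mice were left out, but the call did not. Over the 12 fits that each left out 1 mouse, the log2 fold change of Wnt5b was 1.26 to 1.53, and it passed in 6 fits, with edgeR adjusted p from 0.0174 to 0.0683. The call was lost without Nf2 mouse 918 or 1048, or without DKO mouse 885, 886, 914 or 915. The log2 fold change of Wnt4 was 0.87 to 1.17, and it passed in 3 fits, those without Nf2 mouse 649, DKO mouse 887 or DKO mouse 914, with edgeR adjusted p from 0.0311 to 0.0930. Labelled sex as a covariate, with mouse 702 as male, gave Wnt4 an edgeR adjusted p of 0.0576. This fit was not run without mouse 702. In mice labelled female alone, the log2 fold changes were 1.47 for Wnt5b and 1.29 for Wnt4, and in mice labelled male alone 1.37 and 0.83, with neither gene past the threshold at 3 mice per genotype. Without mouse 702, the values in males were 1.5 and 0.81. Of all genes, 0.308% passed in females alone, 0.0109% in males alone and 0.0476% in males without mouse 702. Both genes were also called by DESeq2, which called 4.62% of all genes, and by limma voom, which called 2.85%. Over the fits that left out 1 mouse, the share of all genes called by edgeR was 0.438% (without Nf2 mouse 918) to 1.17% (without DKO mouse 887).

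**Figure D2:**
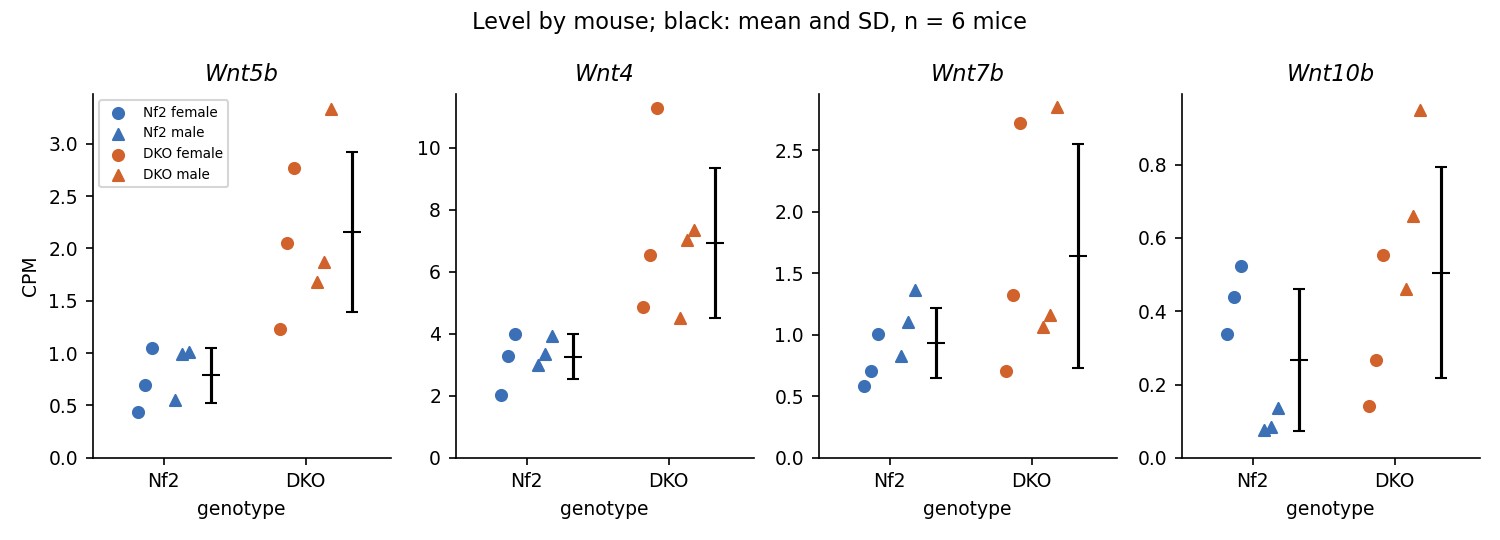
CPM of Wnt5b, Wnt4, Wnt7b and Wnt10b in each mouse by genotype, with circles for mice labelled female and triangles for mice labelled male, each panel on its own linear axis from 0. Black bars are the mean and SD of 6 mice. Wnt5b and Wnt4 do not overlap between genotypes, Wnt7b overlaps, and Wnt10b is lowest in the 3 Nf2 mice labelled male. These include mouse 702, whose Xist and Ddx3y are as in libraries labelled female.

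Because Wnt4 and Wnt5b rose together, the sequences before their starts are shown, from RefSeq promoter windows on GRCm38.p6 that run from 250 bases before to 50 bases after a start. Each stretch is the part of its window before the gene's start in GENCODE M21, printed 5′ to 3′ on the gene's strand. The Wnt4 stretch is chr4:137277385-137277488 on the plus strand, of 104 bases, and the Wnt5b stretch is chr6:119544348-119544597 on the minus strand, of 250 bases. Capitals mark a match to 1 of 3 motifs searched on both strands, GGAATG for TEAD factors, CTTTGA for TCF/LEF factors and TGANTCA for AP-1, each of which could overlap another.
Wnt4: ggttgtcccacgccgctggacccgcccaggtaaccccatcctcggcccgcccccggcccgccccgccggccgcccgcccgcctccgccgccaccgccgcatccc
Wnt5b: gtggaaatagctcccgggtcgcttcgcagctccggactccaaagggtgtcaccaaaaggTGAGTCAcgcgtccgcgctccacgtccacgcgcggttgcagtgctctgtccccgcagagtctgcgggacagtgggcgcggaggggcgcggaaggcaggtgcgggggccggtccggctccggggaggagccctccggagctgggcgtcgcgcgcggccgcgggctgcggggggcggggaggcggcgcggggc

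Both windows are rich in G and C. Over its full 300 bases, the Wnt4 window had 84.3% GC and 51 CpG, and the Wnt5b window 78.0% GC and 47 CpG, against medians of 52.7% and 7 over 32851 windows. The Wnt4 window held none of the 3 motifs, and the Wnt5b window held 1 AP-1 match. Wnt5b has 2 further RefSeq starts inside the gene, and the window of the start at 119467211 held 1 TEAD match and that of the start at 119449386 held 1 TCF/LEF match. Over the 27 windows of 24 members, TEAD letters occurred in 1 window, TCF/LEF letters in 4 and AP-1 letters in 2. The members on chromosome 18, Fzd8 and Wnt8a, were left out of this count. Over all windows, 14.7% held the TEAD letters, 16% the TCF/LEF letters and 7.81% the AP-1 letters. A match is a run of letters and not a measured binding site. By GENCODE M21 on GRCm38, Wnt4 lies on chromosome 4 from 137277489 to 137299726 and Wnt5b on chromosome 6 from 119432531 to 119544347, and exons of no other gene overlap theirs.

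The other 11 ligands tested did not pass the threshold. Wnt7b, a ligand known for beta-catenin signaling in lung, kidney and brain vessels, was at 0.587 to 1.37 CPM (median 0.917) in Nf2 and 0.710 to 2.85 CPM (median 1.25) in DKO mice. DKO mice 886 and 917 lay above the Nf2 range and the other 4 within it. Its log2 fold change was 0.78 ± 0.34 (SE), with an unadjusted p of 0.0398 and an edgeR adjusted p of 0.304. The two-sided exact permutation p of Wnt7b was 0.108 on log2(CPM + 4). Exons of Wnt7b overlap those of the antisense gene AU022754, and whether the counting used strand is not given in the sources used here. The same caution holds for Wnt5a and its antisense gene Gm2670, for Wnt11, Fzd5 and Fzd6.

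The ligands with the highest levels showed no change past the threshold. Wnt6 was at 37.4 to 47.8 CPM (median 43.1) in Nf2 and 30.7 to 50.2 CPM (median 45.2) in DKO mice, with a log2 difference of -0.02 ± 0.11 (SE, 95% interval -0.26 to 0.21). Wnt2b was at 12.9 to 27.3 CPM (median 23.4) in Nf2 and 19.6 to 31.9 CPM (median 26.0) in DKO mice, with a log2 difference of 0.22 ± 0.19. Wnt5a, the ligand most studied in beta-catenin-independent signaling, was at 25.9 to 40.5 CPM (median 35.3) in Nf2 and 29.1 to 51.2 CPM (median 36.7) in DKO mice, with a log2 difference of 0.11 ± 0.13. In all 3 ligands the genotypes overlapped, and the edgeR adjusted p was 0.949 for Wnt6, 0.637 for Wnt2b and 0.729 for Wnt5a. Wnt5a thus lay within its spread in the same mice in which its relative Wnt5b rose, although the difference between both changes was not tested.

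The remaining 7 ligands had log2 fold changes from -0.18 for Wnt9a to 0.88 for Wnt10b. Wnt9a had a 95% interval of -0.36 to 0.01 and an edgeR adjusted p of 0.355. Of the 11 ligands below the threshold, 8 had a 95% interval within 1 log2 unit of 0, and those of Wnt7b, Wnt10b and Wnt16 reached further. Over all 13 ligands tested, 10 were higher and 3 lower in DKO, with a median log2 fold change of 0.17. The median over the 28 members was 0.14 and that over all genes tested was 0.005. As a share of the summed ligand level per length, Wnt5b went from 0.421% to 1.06% in Nf2 mice to 1.31% to 3.13% in DKO mice, and Wnt4 from 1.23% to 2.68% to 2.52% to 5.82%.

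None of the 15 receptors passed an edgeR adjusted p of 0.05, none had an unadjusted p under 0.05, and none was called by DESeq2 or limma voom. Ryk was at 45.5 to 60.8 CPM (median 48.6) in Nf2 and 42.4 to 51.0 CPM (median 43.9) in DKO mice, with 4 DKO mice below the Nf2 range and a log2 fold change of -0.17 ± 0.08 (SE). Fzd1, a Frizzled of the beta-catenin branch, was at 36.1 to 43.0 CPM (median 37.0) in Nf2 and 28 to 43.2 CPM (median 36.5) in DKO mice, with a log2 difference of -0.13 ± 0.09. Lrp6 was at 60.7 to 119 CPM (median 99.3) in Nf2 and 77.1 to 119 CPM (median 106) in DKO mice, with a log2 difference of 0.15 ± 0.14. The genotypes overlapped in all 3, and the edgeR adjusted p was 0.365 for Ryk, 0.591 for Fzd1 and 0.689 for Lrp6.

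The 10 Frizzleds ranged from -0.29 for Fzd8 to 0.47 for Fzd10 on the log2 scale, 6 of them higher and 4 lower in DKO, with a median of 0.10. Fzd4, the receptor of norrin in vessels, had a log2 fold change of 0.42 ± 0.21 (SE) and an edgeR adjusted p of 0.387. Fzd7 had -0.16 ± 0.08 and an edgeR adjusted p of 0.356. Lrp5 had -0.12 ± 0.12, Ror1 0.32 ± 0.25 and Ror2, a receptor of WNT5A, -0.02 ± 0.10. Of the 15 receptors, 14 had a 95% interval within 1 log2 unit of 0, and that of Fzd10 reached 1.04. The summed Frizzled level was 28.9 to 36.7 CPM per kb in Nf2 and 24.7 to 35.3 CPM per kb in DKO mice.

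**Figure D3:**
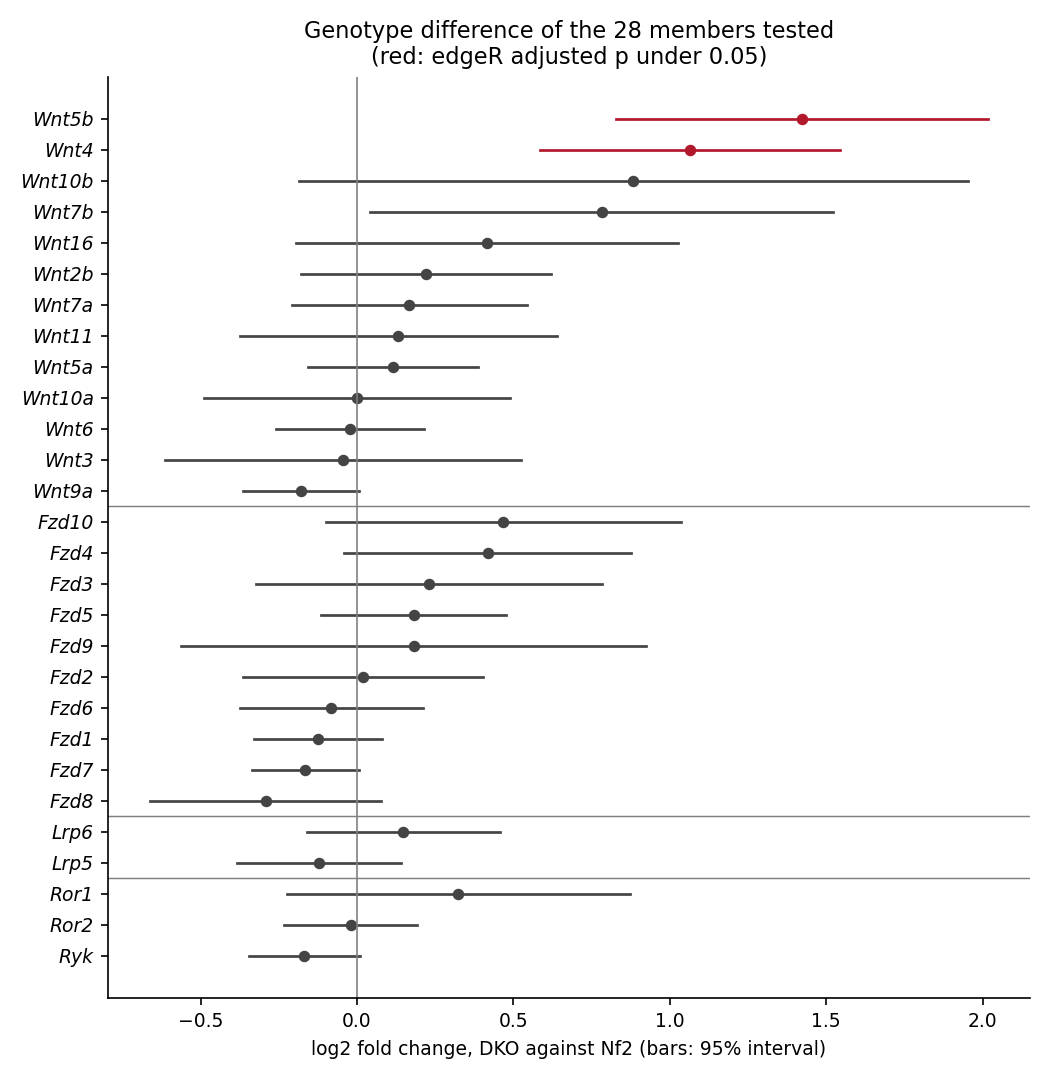
Log2 fold change of DKO against Nf2 with its 95% interval for the 28 genes tested, grouped as ligands, Frizzleds, LRP co-receptors and ROR/RYK receptors, with red for an edgeR adjusted p under 0.05. Wnt5b (1.42) and Wnt4 (1.07) are the red points, and receptor values lie between -0.29 and 0.47.

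Markers of other cells moved between the genotypes as well. Of 12 meningeal and arachnoid marker genes, all 12 were higher in DKO, with a median log2 fold change of 0.93. Of them, 10 had an unadjusted p under 0.05 and none passed the adjusted threshold. Ptgds, a prostaglandin synthase that is abundant in the leptomeninges, was at 28.5 to 208 CPM in Nf2 and 88.4 to 1308 CPM in DKO mice. The summed marker level was 63.7 to 282 CPM in Nf2 and 142 to 1540 CPM in DKO mice, and none of the 12 markers was at 0. Ptgds averaged 127 CPM in Nf2 and 492 CPM in DKO mice and held most of this sum on average. The summed level thus largely follows 1 gene. Mouse 886, which had the highest Wnt4, also had the highest marker level. The same mouse was highest in Wnt5a, Wnt11, Wnt16, Fzd4 and Ror1 as well. In marker level, 5 of the 6 DKO mice exceeded all Nf2 mice. The exception was DKO mouse 887, whose marker level of 142 CPM lay within the Nf2 range. Its Wnt4 of 4.88 CPM and Wnt5b of 1.23 CPM lay above every Nf2 mouse. Among DKO mice its Wnt5b was the lowest, and only mouse 914, at 4.51 CPM, had less Wnt4. Mouse 887 also had the highest mitochondrial share, at 5.60%, and the lowest total count.

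With the marker level of each mouse as a covariate, a fit added after the data had been seen, the log2 fold change was 0.94 for Wnt5b and 0.72 for Wnt4. The edgeR adjusted p then became 0.216 and 0.25, so neither passed, where 0.279% of all genes passed. Marker level went largely with genotype, so this fit cannot tell them apart. In the same fit Wnt7b had 0.30 (edgeR adjusted p = 0.801), against 0.78 without the covariate. Without mouse 886, the log2 fold change was 1.34 for Wnt5b and 0.87 for Wnt4, with edgeR adjusted p of 0.0610 and 0.0555. Without mice 649 and 887, the libraries with the highest mitochondrial share, it was 1.45 and 1.20, and both genes passed at an edgeR adjusted p of 0.0244 and 0.0272. Which cells held the Wnt4 and Wnt5b reads was not tested. Other marker lists moved too. Skeletal muscle markers were lower in 10 of 10 genes (median -2.09, none past the threshold), at 51.8 to 971 CPM in Nf2 and 61.9 to 344 CPM in DKO mice. Nf2 mice 649 at 165 CPM and 702 at 51.8 CPM did not exceed the DKO range. Of that list, Pvalb had -0.29, at 38.9 to 80.9 CPM in Nf2 and 41.2 to 60.8 CPM in DKO mice. Pvalb thus held most of the sum in the mice with the lowest sums, Nf2 mouse 702 and DKO mouse 886. Macrophage markers were lower in 9 of 10 genes, C1qb past the threshold, at 215 to 316 CPM in Nf2 and 180 to 235 CPM in DKO mice. Perineurial (7 of 7) and endothelial (9 of 9) markers were higher with medians of 0.21 and 0.17, none past the threshold. Markers of spinal cord glia and neurons were higher in 7 of 9 genes tested (median 0.55) and those of choroid plexus in 3 of 5 (median 0.54), none past the threshold. The summed level of the spinal cord list was 56.5 to 185 CPM in Nf2 and 62.6 to 253 CPM in DKO mice, and that of the choroid plexus list 5.06 to 7.55 and 5.55 to 14.6 CPM. Satellite glia markers were split, 4 higher and 3 lower, at 4433 to 6386 CPM in Nf2 and 3411 to 4858 CPM in DKO mice. The median was 0.06 for myelinating Schwann cells and -0.04 for repair and nonmyelinating Schwann cells. It was 0.07 for nerve fibroblasts, 0.16 for mural cells and 0.01 for sensory neurons, and no gene of these lists passed the threshold. The part of these cells in the ligand result was not tested.

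**Figure D4:**
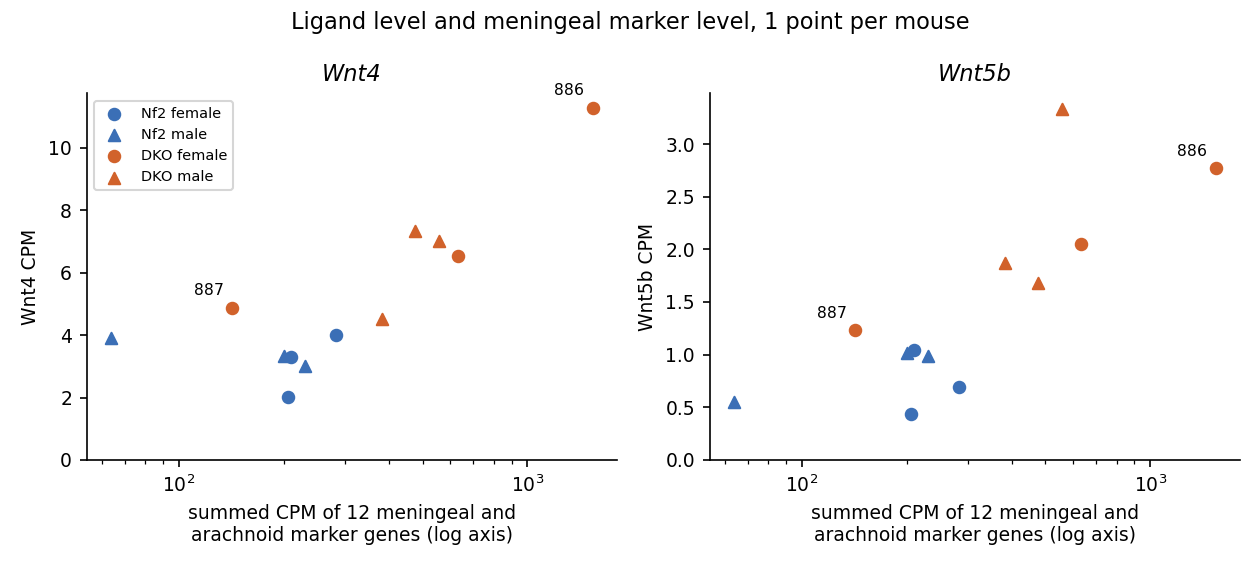
CPM of Wnt4 and of Wnt5b (linear axes from 0) against the summed CPM of 12 meningeal and arachnoid marker genes (log axis), 1 point per mouse, with colors for genotype and shapes for labelled sex. Ptgds holds most of the summed level on average. Mouse 886 is highest on the marker axis at 1540 CPM. DKO mouse 887 lies among the Nf2 mice on that axis at 142 CPM and above them in both ligands, and it is the lowest DKO mouse in Wnt5b.

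Around the ligands and receptors, 90 further genes of the pathway were examined in 7 lists, of which 85 were tested. Past the threshold, 1 rose and 2 fell in DKO, where 0.940% of all genes passed in either direction and 0.372% were higher. The median log2 fold change over the 85 genes was 0.01. In the 3 genes past the threshold the genotypes did not overlap. These genes were picked by the same comparison, so this adds no separate support. Over all genes, 2.08% did not overlap. Nkd1, a feedback inhibitor that binds Dishevelled and is induced by beta-catenin signaling, was at 6.02 to 8.87 CPM in Nf2 and 10.1 to 13.4 CPM in DKO mice. It rose by 0.64 ± 0.11 (SE) on the log2 scale, with an edgeR adjusted p of 0.0138. Sfrp5, a secreted protein that binds Wnt ligands, was at 272 to 398 CPM in Nf2 and 145 to 207 CPM in DKO mice. Its log2 fold change was -0.98 ± 0.12, with an edgeR adjusted p of 0.00256. Gpc4, a cell surface glypican that holds Wnt proteins, was at 23.9 to 34.8 CPM in Nf2 and 17.0 to 23.4 CPM in DKO mice, and its log2 difference was -0.55 ± 0.10, with an edgeR adjusted p of 0.024. Nkd1 and Sfrp5 passed in all 12 fits that left out 1 mouse and Gpc4 in 7 of 12. With the meningeal marker level as a covariate, the log2 difference was 0.65 for Nkd1, -0.99 for Sfrp5 and -0.50 for Gpc4. Only Sfrp5 passed in that fit, with edgeR adjusted p of 0.0813 for Nkd1, 0.0232 for Sfrp5 and 0.152 for Gpc4. That fit called 0.279% of all genes and cannot tell marker level from genotype.

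Among the secreted antagonists, 4 were higher and 7 lower of 11 tested, with Sfrp5 the only one past the threshold and a median of -0.18. Their summed level was 913 to 1092 CPM in Nf2 and 655 to 798 CPM in DKO mice, and Sfrp5 and Sostdc1 held much of it. Sostdc1, an antagonist of both Wnt and BMP ligands, had 362 CPM on average in Nf2 and 246 CPM in DKO mice, which differed by -0.58 ± 0.15 (SE) on the log2 scale (edgeR adjusted p = 0.0828). Among 13 target genes of beta-catenin, 7 were higher and 6 lower with a median of 0.03, Nkd1 alone past the threshold. Tnfrsf19 had 0.75 ± 0.19 and an edgeR adjusted p of 0.0866, and Apcdd1, which also antagonizes Wnt, had -0.53 ± 0.16 and an edgeR adjusted p of 0.138.

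None of the genes tested passed in 4 lists, namely 9 genes of the R-spondins and receptor turnover, 7 of Wnt lipidation and secretion, 20 of the beta-catenin cascade and 14 of planar cell polarity. Rnf43, a ligase that removes Frizzleds from the surface, had -0.73 ± 0.20 (SE) with an edgeR adjusted p of 0.102, and Rspo3, whose product protects Frizzleds from that removal, had 0.95 ± 0.29 with an edgeR adjusted p of 0.135. Wls, the carrier that Wnt proteins need for secretion, had 0.21 ± 0.09 with an edgeR adjusted p of 0.273. In the cascade, Gsk3b had 0.14 ± 0.06 and Apc 0.15 ± 0.07, with edgeR adjusted p of 0.276 and 0.332. In planar cell polarity, Invs had -0.39 ± 0.11 and Daam1 0.23 ± 0.07, with edgeR adjusted p of 0.109 and 0.116. Among the 11 other receptor partners, Gpc3 had -0.60 ± 0.14 with an edgeR adjusted p of 0.0670. DESeq2, which called 4.62% of all genes, called 12 of the 85 genes, among them Nkd1, Sfrp5, Gpc4, Rnf43, Rspo3 and Sostdc1.

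**Figure D5:**
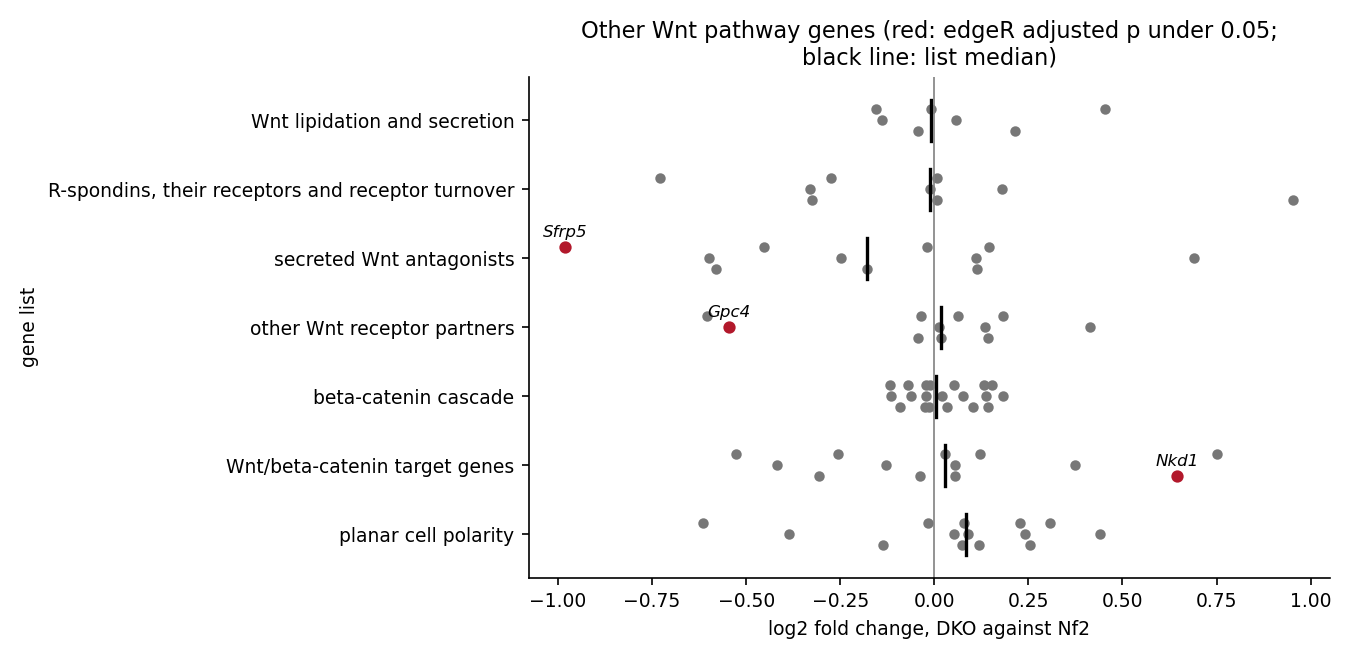
Log2 fold change of DKO against Nf2 for 85 further Wnt pathway genes in 7 lists, 1 point per gene, with red for an edgeR adjusted p under 0.05 and a black line at each list's median. Nkd1 (0.64) lies to the right and Sfrp5 (-0.98) and Gpc4 (-0.55) to the left of 0, while the medians lie between -0.18 and 0.08.

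Between mice labelled male and female, with genotype as a covariate, no member passed an edgeR adjusted p of 0.05, and 0.0164% of all genes did. At an unadjusted p under 0.05, 2 of 28 members and 2.91% of all genes passed, and DESeq2 called no member. Without mouse 649 the share of all genes at that p was 8.60%, and without mouse 702 it was 2.66%, while 10 genes and no member then passed the adjusted threshold. Wnt10a, a ligand known from tooth and skin development, was at 1.56 to 2.16 CPM in Nf2 females, 0.863 to 1.41 CPM in Nf2 males, 1.48 to 2.13 CPM in DKO females and 1.21 to 1.44 CPM in DKO males. Within each genotype no mouse labelled male reached those labelled female. Mouse 702, labelled male but with Xist and Ddx3y as in libraries labelled female, had the lowest level of all. Counted as a female, it would undo the separation in Nf2 mice. The log2 fold change of male against female was -0.55 ± 0.18 (SE), with an unadjusted p of 0.00897 and an edgeR adjusted p of 1.00. Wnt5a averaged 38.2 ± 2.24 CPM (SD, n = 3) in Nf2 females and 31.5 ± 4.90 CPM in Nf2 males, and 42.3 ± 7.87 against 34.1 ± 4.34 CPM in DKO mice, for a male against female log2 difference of -0.29 ± 0.10 (edgeR adjusted p = 1.00). Without mouse 702, the log2 fold change was -0.46 for Wnt10a and -0.32 for Wnt5a, again with an edgeR adjusted p of 1.00.

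The genotype effect was not shown to depend on sex for any member, as none passed an edgeR adjusted p of 0.05 for the interaction and 0.0109% of all genes did. At an unadjusted p under 0.05, 1 of the 28 members (Wnt10b) and 4.78% of all genes passed. DESeq2 gave no adjusted p for Wnt10b and called none of the other members. Wnt10b, a ligand known for its role in bone and fat cell fate, was at 0.338 to 0.523 CPM in Nf2 females and 0.142 to 0.554 CPM in DKO females, which overlapped. In mice labelled male it was at 0.0750 to 0.137 CPM in Nf2 and 0.461 to 0.950 CPM in DKO mice, which did not overlap. These levels rest on 2 to 4 counts in each Nf2 male and 17 to 22 counts in each DKO male. The lowest value was that of mouse 702, whose Xist and Ddx3y were as in libraries labelled female. Counted as a female, it would extend the range of Nf2 females down to 0.0750 CPM. The interaction was 3.07 ± 0.72 (SE) on the log2 scale, with an unadjusted p of 0.00112 and an edgeR adjusted p of 0.791. Without mouse 702 it was 2.91 with an edgeR adjusted p of 0.772.

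The genes that varied most like Wnt4 and Wnt5b within genotypes, among those with at least 5 CPM on average, were not Wnt pathway genes. Most ligands, Wnt5b included, averaged less and could not be ranked. Likeness was Pearson's r over 12 mice of log2 TMM-scaled CPM after subtraction of the genotype mean, over 12475 genes with a mean of at least 5 CPM, and is given as a description of libraries that share depth and tissue makeup. For Wnt4 the genes were Akirin1 (r = 0.951), Ppp3cc (0.922), Cables2 (0.912), Rhpn2 (0.904), Gm15674 (0.897) and Palmd (0.894). For Wnt5b they were Gm45606 (r = 0.900), Ranbp17 (0.895), Zfp687 (0.862), 4732471J01Rik (0.831), Cmtr2 (0.826) and Klhl22 (0.814). None of these 12 genes passed the genotype threshold, with log2 fold changes from -0.09 to 0.24.

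Some members share a chromosome with the deleted genes, where flanking sequence of a modified allele can be inherited along with it. On chromosome 15, Wnt7b lies 12.1 Mb, Wnt10b 25.3 Mb, Wnt1 25.4 Mb and Fzd6 34.2 Mb from Ptk2. On chromosome 11, Wnt3a, Wnt9a, Fzd2, Wnt9b and Wnt3 lie 54.4 to 98.9 Mb from Nf2. Wnt4 lies on chromosome 4 and Wnt5b on chromosome 6. An effect of flanking sequence was not tested.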

How the data were processed

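RNA was sequenced from the DRG of 6 Nf2 and 6 DKO mice, and the authors deposited raw counts, 1 whole number per gene and mouse, without normalization. The submitters' processing notes name Trimmomatic 0.36, STAR 2.5.2b, featureCounts, Subread 1.5.2 and GRCm38. The annotation release and the handling of strand and multi-mapping reads are not given in the sources used here, and both could shift counts of overlapping genes. No 2 libraries agreed within sampling noise (smallest chi-square per degree of freedom 10.7 over 66 pairs).

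Groups followed the labels. Genes were kept by filterByExpr, which left 18295, scaled by TMM and tested with the quasi-likelihood F test of edgeR 4.0.16 in R 4.3.3 on all 12 mice without covariates. Benjamini-Hochberg adjustment ran over all genes tested, and calls used an adjusted p under 0.05. Standard errors and 95% intervals come from the fold change and its F statistic. Male and female mice were compared in a model that also held genotype, and the interaction of both was then added. Printed CPM use library totals, and levels between genes are per kb of merged exon in GENCODE M21. The permutation test used log2(CPM + 4), the scale of the study, for the 3 members with an unadjusted p under 0.05. Replicates are separate animals.

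The members and gene lists were chosen with earlier results of these data known. Statistics of their own were given to members with an unadjusted p under 0.05 and to the 3 ligands and 3 receptors with the highest level per length. Pathway genes were named where they passed the threshold, or otherwise for the smallest p in a list. Tnfrsf19, Apcdd1, Sostdc1, Gpc3, Fzd4, Fzd7, Lrp5, Ror1, Ror2, Wnt9a, Wnt10a and Wnt10b were described outside this rule, after their values were seen. Alternatives were other scaling factors and filters, DESeq2 1.42.0, limma 3.58.1 voom with quality weights, sex as a covariate, each sex alone and each mouse left out. A covariate for meningeal marker level and the removal of mice 649 and 887 were added after the data had been seen. The procedures were tested on simulated data.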

Additional observations from a re-analysis of the deposited data

Results flagged for a closer look

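Each of the 28 members tested was examined in each genotype for a mouse set apart from the others, by Dixon's criterion at 6 mice. Of 56 groups, 2 had such a mouse, where chance gives about 2.8. For Wnt9a, DKO mouse 885 stood highest at 16.4 CPM, the next DKO mouse being at 13.4 CPM. For Fzd8, DKO mouse 886 stood lowest at 10.7 CPM (10.65), the next being at 20.9 CPM. Mouse 886 also had the highest meningeal marker level. No explanation of either value was tested.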

How the results depend on the processing

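The count of members past the threshold, 2 in the comparison of genotypes, was again 2 with each other scaling, each other filter, DESeq2, limma voom and without mice 649 and 887. It was 1 with sex as a covariate (Wnt5b). It was 0 in females alone, in males alone, in males without mouse 702 and with meningeal marker level as a covariate. With 1 mouse left out it was 0 to 2. Of all genes, 0.308% passed in females alone, 0.0109% in males alone and 0.0476% in males without mouse 702. With the meningeal covariate 0.279% of all genes passed, against 0.940% in the main fit. Neither subset by sex had more than 3 mice per genotype, so its counts rest on fewer samples, and the cause of the other changes was not tested. The 2 members without overlap between genotypes stayed 2 with CPM by library total, while leaving out a mouse cannot undo a lack of overlap. No member passed for sex or for the interaction under any alternative run, Wnt10b having no DESeq2 adjusted p for the interaction.

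The 3 further pathway genes past the threshold became 12 with DESeq2, 8 with limma voom, 6 without mice 649 and 887, 1 (Sfrp5) with the meningeal covariate, where the log2 difference was 0.65 for Nkd1 and -0.50 for Gpc4, and 0 in females alone, in males alone and in males without mouse 702. With 1 mouse left out the count was 2 to 4. Over all genes, DESeq2 called 845 and limma voom 521 where edgeR called 172. The share of all genes called was 1.71% without mice 649 and 887, 0.279% with the meningeal covariate and 0.308% in females alone. In males alone it was 0.0109%, and in males without mouse 702 it was 0.0476%. No paired analysis was possible because the mouse numbers are not shared between genotypes. Low counts limit Wnt10b (2 to 22 per mouse) and Wnt5b in Nf2 mice (13 to 29 per mouse).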

Other observations

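The members Wnt2b, Wnt16, Lrp6, Fzd4, Fzd3 and Fzd2, were lowest in mouse 649 among Nf2 mice and in mouse 887 among DKO mice, the libraries with the highest mitochondrial share. This was 6 of 28 members, against 22.4% of all genes tested, a share near that of the members. For Fzd3 the values were 7.62 CPM in mouse 649 and 9.47 CPM in mouse 887, against 11.3 to 25.7 CPM in the other 10 mice.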
